A study of Homo sapiens with 6 samples.

Results

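The SLC25A genes encode the mitochondrial carrier family, and they were taken from the count table as every row whose symbol begins with SLC25A and a number, which gave 48 of 19610 gene rows. Their transcripts were measured by RNA sequencing in SH-SY5Y, an established line of human neuroblastoma cells, of wild-type genotype per the labels. Of the 6 libraries, 3 came from cells given SGC707, which blocks PRMT3, a protein arginine methyltransferase, and 3 from cells given the solvent DMSO, each lettered A to C, the order in which library values are given. No source used here states a dose or duration, or whether replicates were grown apart, so p-values rest on a spread between libraries that may be technical only. The study asked what SGC707 does to gene expression, with MIR448, IGF1R and tau phosphorylation as its stated interest, and the carriers are not part of that question.

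Carriers of this family are small proteins of the inner mitochondrial membrane that open alternately to the cytosol and the matrix and swap one solute for another. They bring ADP and phosphate to the ATP synthase, export ATP, run the malate-aspartate shuttle that carries reducing equivalents into the matrix, and supply the matrix with amino acids, cofactors, iron and glutathione. Most are made in the cytosol without a cleaved presequence and reach the inner membrane through the receptor TOMM70, the small TIM chaperones and the TIM22 translocase. Neurons are known to rely on the aspartate/glutamate carrier SLC25A12, and SH-SY5Y cells, like most dividing lines, are known to mix glycolysis with respiration.

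Total counts were 11658728 to 12127187 per SGC707 library and 11863696 to 15437602 per DMSO library. Mitochondrially encoded transcripts took 24.3% to 37.7% of the counts in SGC707 libraries and 46.7% to 60.7% in DMSO libraries, and counts on nuclear genes were higher in the SGC707 libraries, at 7559322 to 8999358, than in the DMSO libraries, at 6066305 to 6327895. Values below are normalised CPM, a gene's counts relative to its library total after scaling by edgeR's TMM factors. Replicates differed beyond sampling noise in every pair (chi-square per degree of freedom 11.9 or more), and each library was kept. Of 10 noradrenergic neuroblastoma markers 9 had enough counts to be tested, the list summing to 2177 to 2833 normalised CPM in SGC707 libraries and 3039 to 4021 in DMSO libraries, while TH, the tyrosine hydroxylase gene, had 0 counts in every library. Epithelial, leucocyte and endothelial markers summed to at most 1.91, 0.724 and 0.0779 normalised CPM in any library, with KRT5, PTPRC, CD3E and CDH5 at 0, and 6 mesenchymal markers summed to 20.97 to 25.5 normalised CPM with SGC707 and 28.2 to 29.9 with DMSO. The part of these differences in the carriers' values was not tested.

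No carrier gene passed the test between SGC707 and DMSO. Of the 48 rows, 39 had enough counts to be tested, and 0 of them had an edgeR quasi-likelihood adjusted p under 0.05, where 0.0246% of all 12196 tested genes did (0.0082% higher, 0.0164% lower). At an unadjusted p under 0.05 there were 3 members, SLC25A24 and SLC25A3 higher and SLC25A23 lower with SGC707, or 7.69% of those tested, beside 12.8% of all tested genes (5.62% higher, 7.13% lower). DESeq2 passed 1 member, SLC25A23, where it passed 2.47% of all tested genes, and limma-voom passed 0. The share of all tested genes that limma-voom passed was not counted. In these bulk libraries fewer cells with a transcript and less of it per cell cannot be told apart.

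Log2 fold changes (SGC707 over DMSO) ran from -1.28 for SLC25A23 to 0.63 for SLC25A11. They were positive in 26 members and negative in 13, with a median of 0.18, beside a median of 0.02 and 52.8% positive over all tested genes. The 3 SGC707 libraries lay wholly above the 3 DMSO libraries in 7 members, or 17.9%, beside 10.8% of all tested genes, and wholly below them in 3 members, or 7.69%, beside 9.78%. Those 7 were SLC25A3, SLC25A16, SLC25A20, SLC25A24, SLC25A30, SLC25A33 and SLC25A51, and those 3 were SLC25A12, SLC25A23 and SLC25A53. Summed over the family, the level was 1895, 1738 and 1397 normalised CPM in SGC707 (A to C), against 1945, 1912 and 1815 in DMSO (A to C). Without its most abundant member, SLC25A6, the sum was 1247, 1203 and 1148 normalised CPM in SGC707 (A to C), against 1120, 1035 and 1216 in DMSO (A to C). The groups overlapped in both sums.

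**Figure D1:**
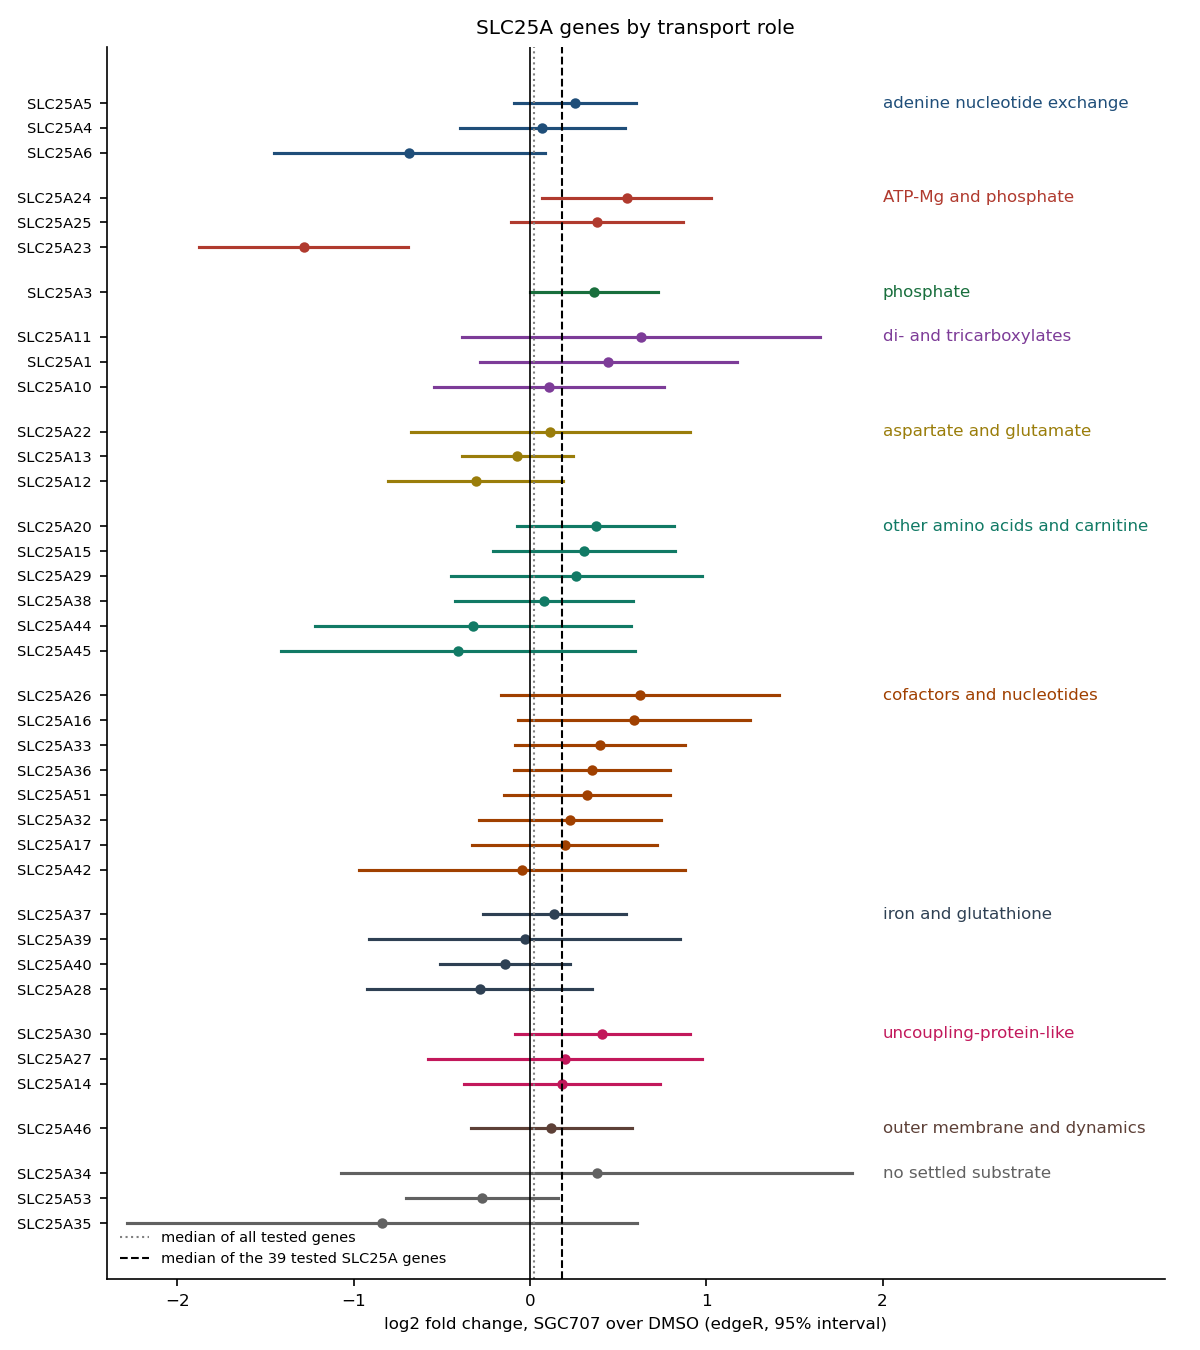
Log2 fold changes of 38 of the 39 tested SLC25A genes on the x axis (SGC707 over DMSO), 1 row per gene grouped by the substrate its protein carries, with bars for the 95% interval from edgeR and vertical lines for the medians of the carriers and of all tested genes. SLC25A23, at -1.28, stands farthest from 0, and 26 of the 38 points lie to the right of 0.

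Levels differed between carriers by a wide margin. Per kilobase of the longest protein-coding transcript, SLC25A6 stood highest, at 231 ± 99.9 normalised CPM per kb in SGC707 libraries and 372 ± 71.4 in DMSO libraries (SD, n = 3), followed by its close relative SLC25A5 at 95.1 ± 11.9 and 79.5 ± 5.68. SLC25A46, SLC25A13, SLC25A36, SLC25A3, SLC25A39 and SLC25A23 came next, with means over all 6 libraries of 34.2, 30.5, 28.5, 20.9, 19.7 and 19.4 normalised CPM per kb. With SGC707 the neighbours SLC25A46 (35.7 ± 8.91 normalised CPM per kb) and SLC25A36 (32.01 ± 6.32) lay within each other's spread, as did SLC25A46 and SLC25A13 with DMSO (32.8 ± 2.78 and 31.2 ± 1.54). SLC25A42 and SLC25A34 were the lowest of the tested carriers, at 0.488 and 0.470 normalised CPM per kb over all libraries. The order depends on the length chosen: with the transcript that APPRIS (a database of principal isoforms) ranks best, an alternative chosen after seeing the data, SLC25A3 moved to 75.8 normalised CPM per kb and the third place, and SLC25A29 stood at 17.6 in place of 8.13.

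**Figure D2:**
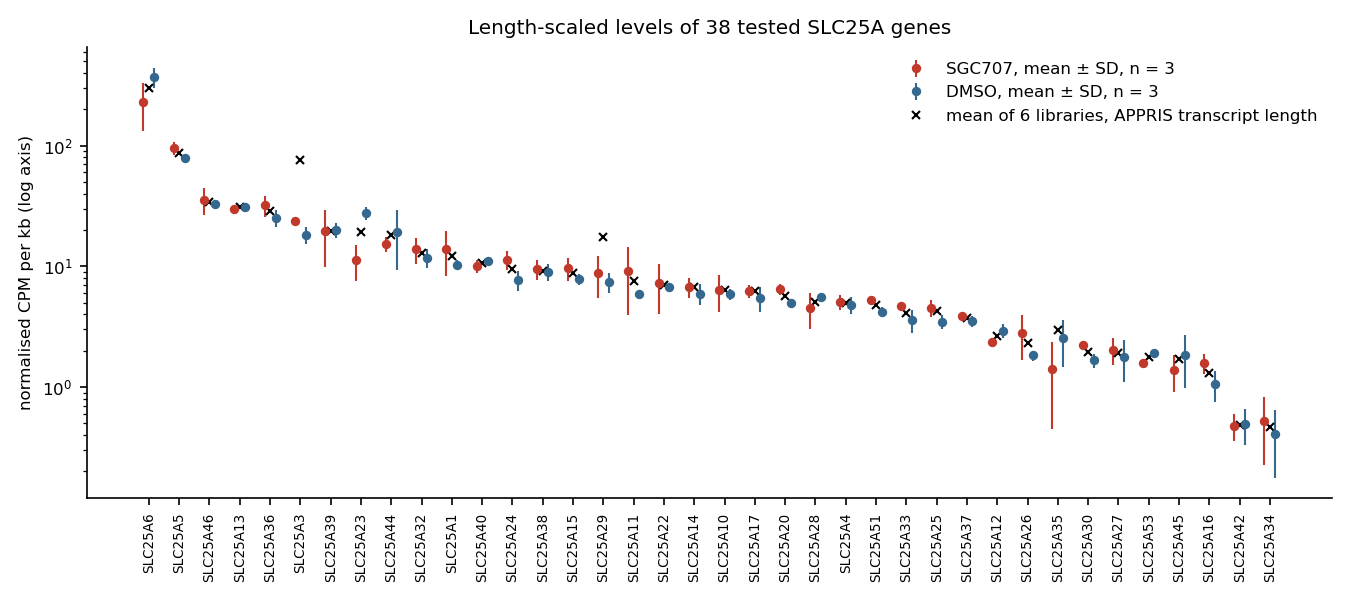
Length-scaled levels of 38 of the 39 tested SLC25A genes, in normalised CPM per kb on a log axis, as means ± SD of 3 SGC707 and 3 DMSO libraries, with crosses for the mean of all 6 libraries when the APPRIS transcript sets the length. SLC25A6 and SLC25A5 stand apart at the top, and the crosses leave the points most for SLC25A3 and SLC25A29.

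The ADP/ATP carriers, which exchange matrix ATP for cytosolic ADP, were led by SLC25A6 (GRCh38 chromosome X, 1386152 to 1392724, in the pseudoautosomal region). It had 648, 535 and 249 normalised CPM in SGC707 (A to C), against 825, 876 and 600 in DMSO (A to C). SGC707 C was far below the rest, SGC707 A lay above DMSO C, and the groups overlapped. The log2 fold change was -0.68 (95% interval -1.45 to 0.08, edgeR adjusted p = 0.443), -0.97 without SGC707 A and -0.38 without SGC707 C. After a correction for GC content and length it was -0.63, which did not pass either (edgeR adjusted p = 0.0597). SLC25A5 (chromosome X, 119468400 to 119471319), the form most linked to dividing cells, had 135, 124 and 105 normalised CPM in SGC707 (A to C), against 93.8, 102 and 108 in DMSO (A to C). Its SGC707 C value fell among the DMSO values (log2 fold change 0.26, edgeR adjusted p = 0.506). After the correction for GC content and length its log2 fold change was 0.12. SLC25A4, the form of heart and muscle, stood at 22.4 ± 3.25 normalised CPM with SGC707 and 21.4 ± 3.55 with DMSO (SD, n = 3), and SLC25A31, known from testis, had 1 count in all. SLC25A5 has many processed pseudogenes and the 3 expressed forms are alike in sequence, so reads shared between them make each count uncertain.

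Neither SLC25A5 nor SLC25A6 passed the test. Their upstream sequences are given because both forms carry the same solutes while their fold changes had opposite signs. They are the 250 bases before the RefSeq start site on GRCh38.p14, 5′ to 3′, at chrX:119468194-119468443, plus strand, for SLC25A5 and at chrX:1392114-1392363, minus strand, for SLC25A6. Capitals mark, on either strand, CCGGAAG (the core read by ETS-family factors), CCAAT (the NF-Y box), GGGCGG (the GC box) and TATAAA (the TATA box), with a base in more than one motif capitalised once. SLC25A5 holds 5 GC boxes and a single TATA box, and SLC25A6 holds 4 GC boxes and 2 CCAAT boxes.
SLC25A5: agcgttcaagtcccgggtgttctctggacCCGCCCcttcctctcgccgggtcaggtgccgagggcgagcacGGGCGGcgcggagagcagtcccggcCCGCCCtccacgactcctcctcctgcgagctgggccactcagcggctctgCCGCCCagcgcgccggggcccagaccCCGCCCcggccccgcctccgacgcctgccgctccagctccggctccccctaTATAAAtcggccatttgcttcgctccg
SLC25A6: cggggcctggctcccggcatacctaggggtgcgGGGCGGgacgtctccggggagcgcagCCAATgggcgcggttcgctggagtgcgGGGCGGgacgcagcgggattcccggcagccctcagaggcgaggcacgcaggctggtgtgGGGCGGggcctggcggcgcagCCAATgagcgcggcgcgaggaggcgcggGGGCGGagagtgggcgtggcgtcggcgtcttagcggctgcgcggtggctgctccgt

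The ATP-Mg/phosphate carriers, calcium-regulated proteins that adjust the adenine nucleotide pool of the matrix, held the widest difference in the family. SLC25A23 (chromosome 19, 6436079 to 6465203) had 48.2, 43.3 and 24.5 normalised CPM in SGC707 (A to C), against 96.8, 104 and 82.0 in DMSO (A to C). Every SGC707 library lay below every DMSO library, with means of 38.7 ± 12.5 and 94.2 ± 11.2 (SD, n = 3). The log2 fold change was -1.28 (SE 0.26, 95% interval -1.88 to -0.69). Its edgeR adjusted p was 0.178, so it did not pass over all genes; it passed in DESeq2 (adjusted p = 7.10e-04), after a correction for GC content and length (edgeR adjusted p = 0.0268), and without SGC707 C (edgeR adjusted p = 0.0272). Over all alternatives its log2 fold change stayed negative, and its adjusted p ran from 7.10e-04 to 0.684.

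Its relative SLC25A24 (chromosome 1, 108134036 to 108200849) had 40.1, 47.9 and 57.7 normalised CPM in SGC707 (A to C), against 32.7, 27.1 and 39.6 in DMSO (A to C). All SGC707 values were above all DMSO values, SGC707 A by little (log2 fold change 0.55, SE 0.21, edgeR adjusted p = 0.335). SLC25A25, the third calcium-binding form, stood at 16.8 ± 2.80 normalised CPM with SGC707 and 12.9 ± 1.76 with DMSO (SD, n = 3; log2 fold change 0.38, edgeR adjusted p = 0.501), with overlapping groups. SLC25A41, the form without the calcium-binding part, had 0 counts in the SGC707 libraries and at most 2 in a DMSO library.

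Upstream sequences of SLC25A23 (chr19:6459793-6460042, minus strand) and SLC25A24 (chr1:108200344-108200593, minus strand, the first of the 2 start sites that RefSeq lists) are given for the same reason, with the same build, length and capitals. SLC25A23 holds 2 GC boxes and a single CCAAT box, and SLC25A24 holds a single ETS core. Over the 40 carriers matched to the RefSeq table, with 50 start sites, the ETS core was found in 22% of the upstream windows, beside 8.52% of 34961 windows of all genes. The GC box was found in 66.0% beside 42.7%, the CCAAT box in 42% beside 31.97% and the TATA box in 8% beside 10.7%. These are matches of letters, not shown to be bound. In each of the 4 genes the RefSeq start used lies inside the GENCODE gene bounds, not at their edge. It lies farthest inside for SLC25A23, where the window reaches 6460042 and the gene 6465203. That window thus lies wholly within the gene bounds.
SLC25A23: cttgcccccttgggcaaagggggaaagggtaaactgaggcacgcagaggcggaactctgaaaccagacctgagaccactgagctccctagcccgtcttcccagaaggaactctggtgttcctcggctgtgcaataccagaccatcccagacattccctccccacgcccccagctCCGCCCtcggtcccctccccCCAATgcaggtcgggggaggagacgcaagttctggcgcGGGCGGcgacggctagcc
SLC25A24: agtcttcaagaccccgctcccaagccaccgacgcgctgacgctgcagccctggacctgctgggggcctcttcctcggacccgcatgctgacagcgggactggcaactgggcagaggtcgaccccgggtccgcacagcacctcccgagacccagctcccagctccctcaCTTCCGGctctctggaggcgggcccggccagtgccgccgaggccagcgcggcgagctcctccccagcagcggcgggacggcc

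Phosphate enters the matrix through SLC25A3 (chromosome 12, 98593591 to 98606379). It had 146, 146 and 137 normalised CPM in SGC707 (A to C), against 102, 98.5 and 133 in DMSO (A to C). The groups did not overlap, but DMSO C came close to SGC707 C (log2 fold change 0.37, SE 0.16, edgeR adjusted p = 0.389). Among the di- and tricarboxylate carriers, SLC25A11, which swaps oxoglutarate for malate in the malate-aspartate shuttle, had 25.7, 20.1 and 6.47 normalised CPM in SGC707 (A to C), against 10.5, 11.6 and 11.7 in DMSO (A to C) (log2 fold change 0.63, 95% interval -0.38 to 1.64, edgeR adjusted p = 0.581). SLC25A1, the citrate exporter that feeds fatty acid synthesis, showed the same shape, with 29.3, 27.2 and 12.5 against 18.4, 15.2 and 17.2 normalised CPM (0.44, edgeR adjusted p = 0.587). For both, SGC707 A and B lay above and SGC707 C below all DMSO libraries. Without SGC707 C, SLC25A11 (log2 fold change 1.02, edgeR adjusted p = 0.0277) and SLC25A1 (0.73, edgeR adjusted p = 0.0320) passed. Without SGC707 A their log2 fold changes were 0.24 for SLC25A11 and 0.23 for SLC25A1. The dicarboxylate carrier SLC25A10 had a log2 fold change of 0.11.

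The aspartate/glutamate carriers, the other arm of the malate-aspartate shuttle, had mostly small differences. SLC25A13, citrin, stood at 30.5 normalised CPM per kb over all libraries and SLC25A12 at 2.65. SLC25A13 had 87.8, 92.9 and 104 normalised CPM in SGC707 (A to C), against 97.1, 96.6 and 105 in DMSO (A to C), and the groups overlapped (log2 fold change -0.07, 95% interval -0.39 to 0.24). SLC25A12, the neuronal form aralar, had 6.65, 6.98 and 7.56 normalised CPM in SGC707 (A to C), against 10.1, 7.82 and 8.28 in DMSO (A to C). SGC707 libraries were all lower for SLC25A12, SGC707 C and DMSO B being close (log2 fold change -0.31, 95% interval -0.80 to 0.19, edgeR adjusted p = 0.581; -0.19 without DMSO A). The glutamate carrier SLC25A22 stood at 20.3 ± 9.09 and 18.8 ± 1.02 normalised CPM (SGC707 and DMSO, SD, n = 3; log2 fold change 0.12).

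Carriers of other amino acids and of carnitine had log2 fold changes from -0.41 to 0.37. SLC25A20, which brings acylcarnitines in for fatty acid oxidation, had 12.99, 12.6 and 10.8 normalised CPM in SGC707 (A to C), against 9.63, 8.70 and 9.72 in DMSO (A to C), without overlap (0.37, 95% interval -0.07 to 0.82, edgeR adjusted p = 0.472). The ornithine carrier SLC25A15 (0.31), the basic amino acid carrier SLC25A29 (0.26), the glycine carrier SLC25A38 (0.08), SLC25A44 (-0.32), known to carry branched-chain amino acids, and SLC25A45 (-0.41) had overlapping groups. SLC25A44 was uneven among the DMSO libraries: SGC707 (A to C) had 62.4, 59.6 and 47.5 normalised CPM, against 99.2, 29.9 and 82.9 in DMSO (A to C), so DMSO B was the lowest and DMSO A the highest of the 6. Its log2 fold change was -0.69 without DMSO B and -0.0019 without DMSO A.

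Carriers of cofactors and nucleotides had log2 fold changes above 0 in 7 of 9 tested members (77.8%, median 0.33), beside 52.8% of all tested genes. SLC25A36 and SLC25A33 import pyrimidine nucleotides for mitochondrial DNA and RNA. SLC25A36 had 130, 133 and 182 normalised CPM in SGC707 (A to C), against 106, 105 and 138 in DMSO (A to C), with DMSO C above SGC707 A and B (0.35, edgeR adjusted p = 0.494; 0.17 without SGC707 C). SLC25A33 had 18.3, 17.7 and 18.4 normalised CPM in SGC707 (A to C), against 12.02, 12.02 and 17.3 in DMSO (A to C), without overlap (0.40, edgeR adjusted p = 0.479). Both had DMSO C nearer to the SGC707 libraries than the other DMSO libraries were. SLC25A16, tied to coenzyme A supply, had 9.61, 8.93 and 12.5 normalised CPM in SGC707 (A to C), against 4.58, 7.82 and 8.19 in DMSO (A to C), without overlap (0.59, 95% interval -0.07 to 1.25, edgeR adjusted p = 0.441; 0.37 without DMSO A). SLC25A26 imports S-adenosylmethionine, the methyl donor that arginine methyltransferases also use, and had 8.10, 10.2 and 4.21 normalised CPM in SGC707 (A to C), against 5.34, 4.89 and 4.41 in DMSO (A to C). Here too SGC707 A and B lay above and SGC707 C below all DMSO libraries (0.62, edgeR adjusted p = 0.498; 0.90, edgeR adjusted p = 0.0418 without SGC707 C; 0.34 without SGC707 B). The NAD carrier SLC25A51 stood at 8.95 ± 0.180 and 7.14 ± 0.718 normalised CPM (SGC707 and DMSO, SD, n = 3; 0.33, edgeR adjusted p = 0.541), without overlap. The folate and FAD carrier SLC25A32 (0.23), the peroxisomal SLC25A17 (0.20) and the coenzyme A carrier SLC25A42 (-0.04) had overlapping groups.

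The iron and glutathione carriers had log2 fold changes from -0.28 to 0.14. SLC25A39, which brings glutathione into the matrix, had 42.8, 37.6 and 13.6 normalised CPM in SGC707 (A to C), against 37.3, 30.7 and 28.3 in DMSO (A to C) (log2 fold change -0.03, 95% interval -0.91 to 0.85). SGC707 A and B were the 2 highest libraries and SGC707 C the lowest. SLC25A40, its relative, had a log2 fold change of -0.14, and the iron importers SLC25A37 and SLC25A28, the mitoferrins, had 0.14 and -0.28. SLC25A30, SLC25A27 and SLC25A14, which resemble the uncoupling proteins, had log2 fold changes of 0.41, 0.20 and 0.18. Of these SLC25A30 had 8.22, 8.11 and 8.03 normalised CPM in SGC707 (A to C), against 6.01, 5.38 and 6.93 in DMSO (A to C), without overlap (edgeR adjusted p = 0.477).

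SLC25A46, a family member of the outer membrane that takes part in mitochondrial fission and fusion, had 70.8, 75.0 and 110 normalised CPM in SGC707 (A to C), against 72.7, 76.3 and 85.5 in DMSO (A to C). The high SGC707 C value set the sign: the log2 fold change was 0.12, and -0.105 without SGC707 C. Among carriers with no settled substrate, SLC25A53 stood at 9.94 ± 0.611 and 11.99 ± 0.747 normalised CPM (SGC707 and DMSO, SD, n = 3; -0.27, edgeR adjusted p = 0.579), all SGC707 libraries below all DMSO libraries, while SLC25A35 (-0.84) and SLC25A34 (0.38) had wide intervals of -2.28 to 0.61 and -1.07 to 1.83.

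**Figure D3:**
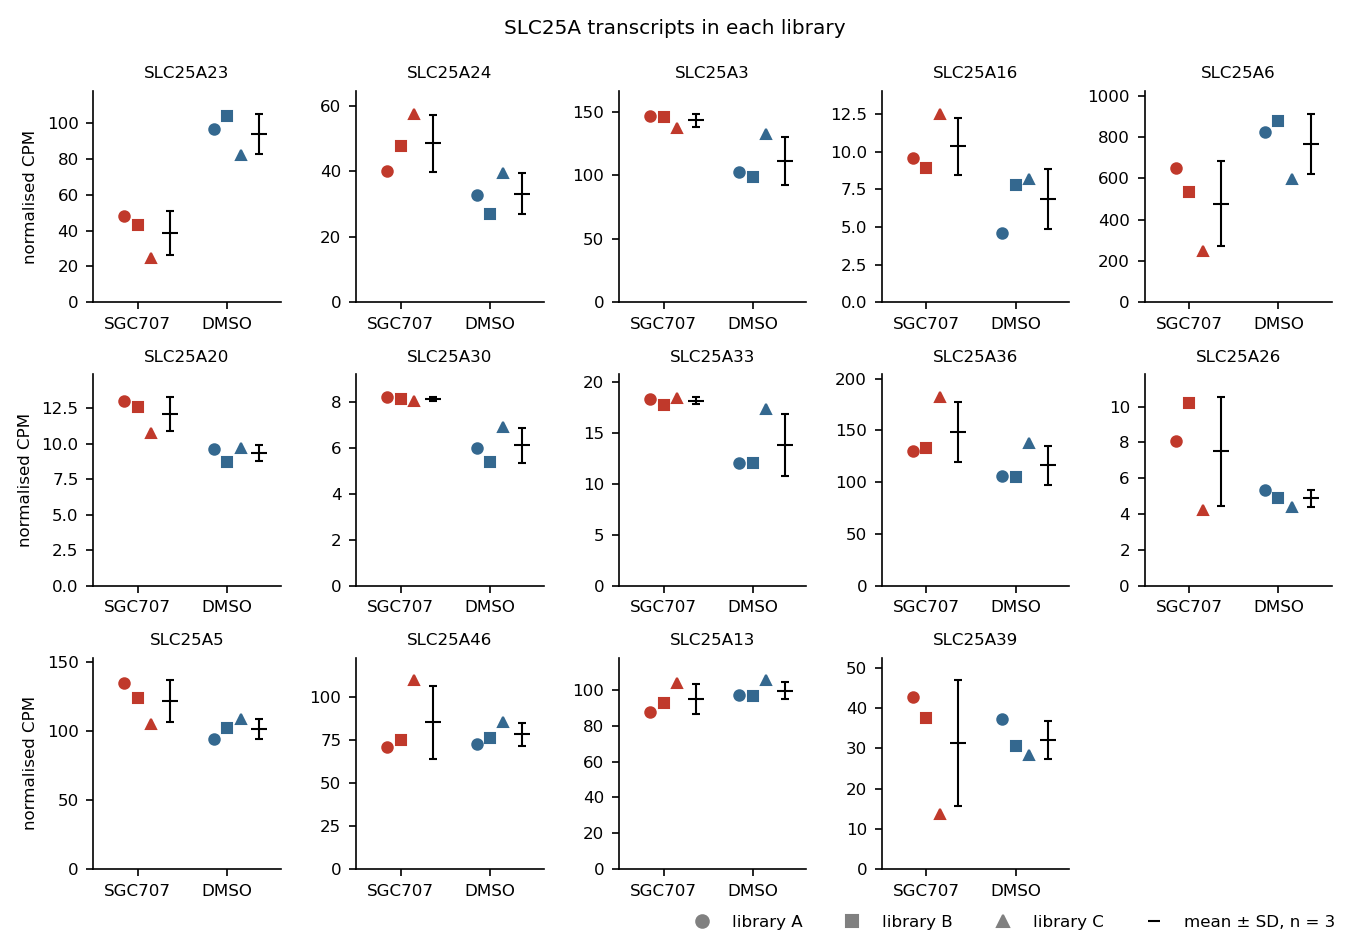
Normalised CPM of the 14 carrier genes with the smallest p or the highest length-scaled level, 1 panel per gene with its own y axis from 0, SGC707 libraries in red and DMSO libraries in blue, marker shape for the library letter and a bar for the mean ± SD of 3. SLC25A23 separates the groups widest. The triangle of SGC707 C stands below the other SGC707 libraries in SLC25A3, SLC25A5, SLC25A6, SLC25A20, SLC25A23, SLC25A26, SLC25A30 and SLC25A39. It stands above them in SLC25A13, SLC25A16, SLC25A24, SLC25A33, SLC25A36 and SLC25A46. In SLC25A30 and SLC25A33 the distance is small.

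The 9 carriers that were not tested had at most 2 counts in any library. SLC25A18, SLC25A21, SLC25A47 and SLC25A48 had 0 counts in all 6, SLC25A2, SLC25A31, SLC25A43 and SLC25A52 had 1 count in all, and SLC25A41 had 4. At this depth no difference was detectable for them: 0 counts leaves room for 3, or 0.181 to 0.293 normalised CPM per library, from counting error alone. Several sit beside well-expressed relatives: SLC25A41 (chromosome 19, 6426037 to 6433779) next to SLC25A23, SLC25A43 (chromosome X, 119399060 to 119454478) next to SLC25A5, and SLC25A47 (chromosome 14, 100323337 to 100330378) next to SLC25A29 (100291111 to 100306547). SLC25A52 is nearly identical to SLC25A51, so its reads could be counted under either.

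Shares within a set of related carriers do not depend on the scaling between libraries, but they can depend on GC content. The members compared differ in it, at 64.9% for SLC25A6 and 49.5% for SLC25A5, and 58.5% for SLC25A23 and 38.7% for SLC25A24. No share was corrected for GC content, and its part in them was not tested. Of the summed length-scaled counts of SLC25A23, SLC25A24 and SLC25A25, SLC25A24 made up 32.9%, 39.1% and 55.5% in SGC707 (A to C), against 19.6%, 15.8% and 24.9% in DMSO (A to C). All SGC707 shares were higher, by 22.4 percentage points on average (exact permutation test, two-sided, p = 0.1; adjusted p = 0.225 over 9 shares; groups of 3 cannot go below 0.1), and by 15.9 points without SGC707 C. SLC25A6 made up 73.8%, 71.7% and 58.2% of the ADP/ATP carriers SLC25A4, SLC25A5 and SLC25A6 in SGC707 (A to C), against 83.7%, 83.4% and 76.2% in DMSO (A to C). That share was lower in every SGC707 library, with a mean difference of -13.2 percentage points (exact permutation p = 0.1, adjusted p = 0.225) and of -8.36 points without SGC707 C. The share of SLC25A5 was higher by 12.7 points (8.07 without SGC707 C). As SLC25A4 made up little of the set, this nearly mirrors the share of SLC25A6 and is no separate observation, though both count among the 9 shares. The share of SLC25A12 in SLC25A12 and SLC25A13 was 7.40% ± 0.144 with SGC707 and 8.60% ± 1.25 with DMSO (SD, n = 3, exact permutation p = 0.1, adjusted p = 0.225), a difference of -1.20 points, and of -0.48 points without DMSO A. For the other 5 shares tested, those of SLC25A36, SLC25A37, SLC25A39, SLC25A14 and SLC25A1 in their sets, the groups overlapped (exact permutation p from 0.3 to 1). SLC25A22 made up all counts of itself and SLC25A18, so that share could not be tested.

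**Figure D4:**
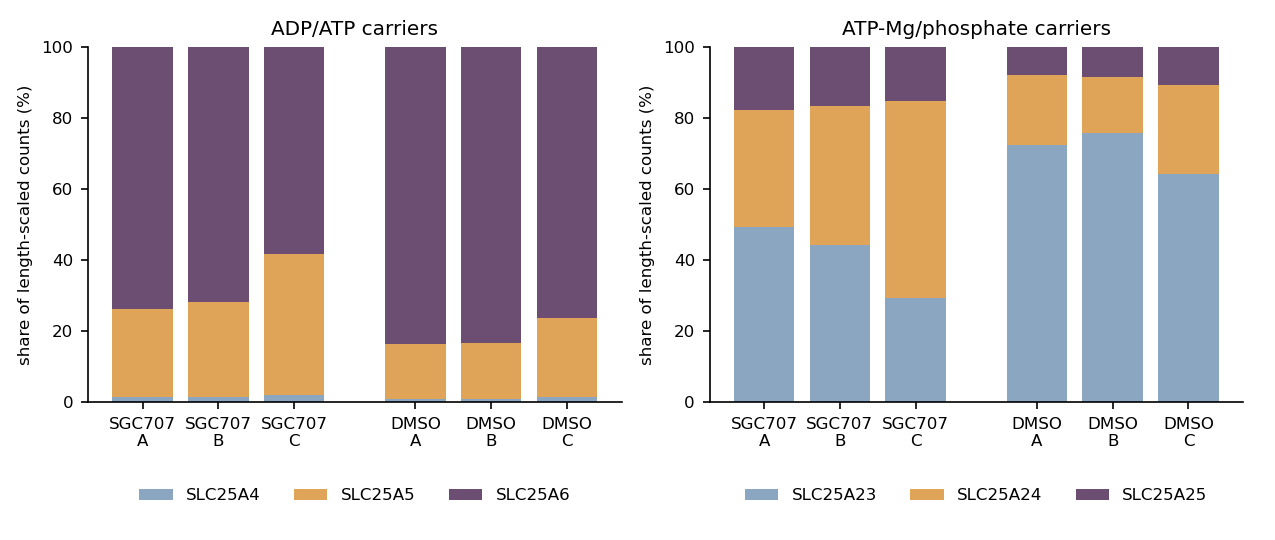
Stacked bars of the share of each gene in the summed length-scaled counts of its set, in percent, 1 bar per library, for the ADP/ATP carriers and the ATP-Mg/phosphate carriers, SGC707 libraries left and DMSO libraries right. The SLC25A24 band is wider in every SGC707 library, at 32.9% to 55.5%, than in any DMSO library, at 15.8% to 24.9%.

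Of the 6 libraries, SGC707 C had the strongest relation between carrier levels and GC content. Over the 39 tested carriers, the Spearman correlation of transcript GC content with SGC707 C's deviation (its log2 ratio to each gene's mean) was -0.85, beside 0.57 in SGC707 A, 0.29 in SGC707 B, and 0.38, 0.43 and -0.29 in DMSO (A to C). These are descriptions across genes that share their libraries, and SGC707 C is itself part of each gene mean, which moves the other libraries the opposite way; over 11577 genes the value for SGC707 C was -0.77. Of the 20 carriers with a GC content of 50% or more, SGC707 C was the lowest of the 6 libraries in 11. Their median log2 ratio to the DMSO mean was -0.53 in SGC707 C, 0.28 in SGC707 A and 0.22 in SGC707 B. In the 19 carriers under 50% GC that median was 0.28, 0.21 and 0.32 in SGC707 (A to C). SGC707 A and B lay above and SGC707 C below all DMSO libraries in 7 members, SLC25A1, SLC25A10, SLC25A11, SLC25A22, SLC25A26, SLC25A29 and SLC25A39, with a GC content from 47.4% to 65.6%. No member showed the opposite split. The shares of all tested genes with these patterns were not counted, so the patterns are not shown to be particular to the carriers.

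The calls changed with that library left out. Without SGC707 C, 4 of the 39 carriers passed in edgeR, SLC25A1, SLC25A11 and SLC25A26 higher and SLC25A23 lower, or 10.3% beside 9.26% of all genes tested then. After the correction for GC content and length on all 6 libraries, 1 carrier passed, SLC25A23 (log2 fold change -1.23), where 0.508% of all tested genes did. The median of the family was 0.14 after that correction and 0.22 without SGC707 C.

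**Figure D5:**
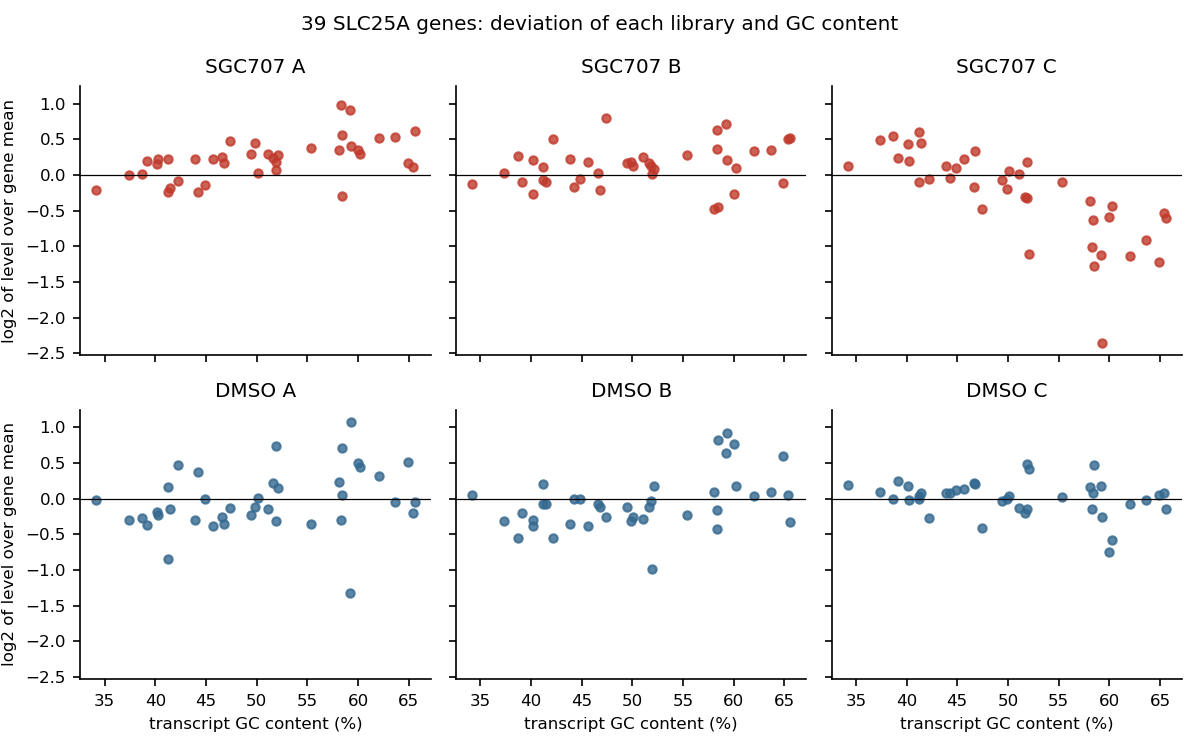
Deviation of each library from the mean of its gene, on the log2 scale, against the GC content of the longest protein-coding transcript in percent, for the 39 tested SLC25A genes, with SGC707 libraries in the upper row and DMSO libraries in the lower row. Points of SGC707 C run from above 0 at low GC content to below 0 at high GC content, with a Spearman correlation of -0.85.

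Genes that work with the carriers were read from 4 lists of 45 genes, of which 44 were tested. Of these 0 passed in edgeR (0.0246% of all tested genes did), DESeq2 (2.47% did) or limma-voom (share not counted). At an unadjusted p under 0.05 there were 8 higher and 2 lower in edgeR, or 22.7%, beside 12.8% of all tested genes (5.62% higher, 7.13% lower), and the median log2 fold change of all 44 was 0.22. In the import route to the inner membrane 12 of 16, or 75.0%, had a log2 fold change above 0, and the median was 0.37. Over all tested genes 52.8% were above 0, with a median of 0.02. TOMM7, a small subunit of the outer membrane translocase, had 23.9, 13.96 and 12.5 normalised CPM in SGC707 (A to C), against 5.25, 9.58 and 9.54 in DMSO (A to C) (1.05, edgeR adjusted p = 0.291). The receptors TOMM20 (0.47, edgeR adjusted p = 0.308) and TOMM22 (0.70, edgeR adjusted p = 0.316) also had all SGC707 libraries above all DMSO libraries, and the chaperone TIMM10B (-0.58, edgeR adjusted p = 0.381) had overlapping groups. VDAC1, the main outer membrane channel through which the carriers' solutes pass, had 107, 94.8 and 108 normalised CPM in SGC707 (A to C), against 75.1, 81.2 and 81.9 in DMSO (A to C) (0.38, edgeR adjusted p = 0.313), and VDAC2 and VDAC3 had 0.33 and 0.22. Leaving out 1 library gave 0.036 (without SGC707 C) to 0.54 for VDAC2 and 0.11 (without DMSO B) to 0.34 for VDAC3.

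Family members with other names pointed both ways. The uncoupling protein gene UCP2 had 19.6, 18.8 and 11.8 normalised CPM in SGC707 (A to C), against 26.5, 34.9 and 23.8 in DMSO (A to C) (log2 fold change -0.76, 95% interval -1.34 to -0.18, edgeR adjusted p = 0.2996). MTCH2, an insertase of the outer membrane, had 52.03, 54.4 and 55.5 normalised CPM in SGC707 (A to C), against 41.5, 34.6 and 41.7 in DMSO (A to C) (0.46, edgeR adjusted p = 0.291). Neither gene's groups overlapped. MTCH1 had 0.65 (edgeR adjusted p = 0.356; 0.89, edgeR adjusted p = 0.0272 without SGC707 C), UCP3 -0.15, and UCP1 had at most 5 counts in a library. Among 21 other transporters of the inner membrane, 15 had a log2 fold change above 0 and the median was 0.15; smallest in p were GHITM (0.45), ABCB10 (0.68), STARD7 (0.24) and SMDT1 (0.44), with edgeR adjusted p from 0.328 to 0.491. The median of all tested genes was 0.02, and 52.8% of them had a log2 fold change above 0. Groups did not overlap in 20.6% of all tested genes, beside 27.3% of the companion genes.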

How the data were processed

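RNA was measured in 6 SH-SY5Y libraries, 3 given SGC707 and 3 given DMSO, with groups taken from the treatment label. Libraries were paired-end and made from mRNA, per the labels' protocols. The authors deposited unscaled read counts, in whole numbers, for each gene symbol. HISAT2, StringTie and GRCh38 are named per the submitters' processing notes; no source used here gives versions, annotation, strand setting or how shared reads were treated, so counts of paralogs are uncertain.

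The whole table was fitted in R 4.3.3 with edgeR 4.0.16 (filterByExpr, TMM, robust glmQLFit and glmQLFTest, no covariate), with Benjamini-Hochberg adjustment over 12196 genes and a threshold of 0.05. Gene positions, GC content and lengths came from GENCODE release 29 on GRCh38, with 19294 symbols matched directly, 233 through a synonym and 83 not matched. The GC and length correction fitted lowess curves (span 0.3) to each library's deviations and entered edgeR as offsets. Alternatives were RLE factors, library totals, no filter, a stricter filter, DESeq2 1.42.0, limma-voom (limma 3.58.1), a fit without mitochondrial genes, the replicate letter as a block and each library left out. On simulated counts, edgeR called 46% of 100 genes changed 2-fold and 100% of 100 genes changed 4-fold, with 7 false calls in all. The simulated counts held no shift with GC content and took their spread from the fitted trend alone. Only genes above a minimum mean count were changed. Recovery in the real libraries may thus be lower, and a 2-fold change in a carrier could be missed. Intervals come from the edgeR fit and include the spread between libraries, which may be technical only. Limits at 0 counts cover counting error only. Promoter sequences are from RefSeq. The values of 1 tested carrier are not reported here; it stays in all counts and medians.

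The members, lists, tests and alternatives were chosen with earlier results of these data known. Values per library are given for the 10 members with the smallest p and a mean of at least 5 CPM and for the 8 with the highest length-scaled level; SLC25A1, SLC25A11, SLC25A12 and SLC25A44 were added after their values were seen. Companion genes are the 4 with the smallest p in each list.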

Additional observations from a re-analysis of the deposited data

How the results depend on the processing

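With scaling by library totals alone, 8 carriers and 17 companion genes passed, all higher, and the median of the carriers was 0.83, but over all tested genes that median was then 0.69; 20.5% of the carriers and 38.6% of the companion genes passed then, beside 21.4% of all tested genes. DESeq2 and the GC and length correction each passed 1 carrier, SLC25A23. Leaving out 1 library gave 0 to 4 carriers and 0 to 3 companion genes (MTCH1, TIMM13 and TIMM29), the higher numbers without SGC707 C, where they were 10.3% of the carriers and 6.82% of the companion genes beside 9.26% of all genes tested. No carrier passed with RLE factors, no filter, the stricter filter, limma-voom, the fit without mitochondrial genes, a threshold of 0.01 or the replicate block (0 called, median 0.18; 0 with the correction as well). At 0.01 no tested gene passed, the smallest edgeR adjusted p being 0.0154. For the other settings without a carrier called, the share of all tested genes passing was not counted. Their results are thus not shown to be particular to the carriers. Same-lettered libraries deviated together with correlations of 0.08, -0.02 and 0.0998 in A, B and C, so the letters are not shown to pair the samples.

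Of 39 carriers, 30 kept the sign of the log2 fold change under all alternatives, library totals being read relative to the median of all tested genes. The other 9, with log2 fold changes from -0.04 to 0.38, changed sign under at least 1 alternative, for causes that were not tested. Leaving out 1 library gave -0.041 to 0.20 for SLC25A4, -0.16 to 0.33 for SLC25A10, -0.14 to 0.44 for SLC25A22, -0.018 to 0.55 for SLC25A27, -0.0087 to 0.79 for SLC25A34, -0.018 to 0.22 for SLC25A38, -0.32 to 0.32 for SLC25A39, -0.29 to 0.18 for SLC25A42, -0.11 to 0.24 for SLC25A46 and -0.28 to 0.024 for UCP3. SLC25A39 had 0.0183 with library totals, and SLC25A42 had 0.036 after the correction and 0.041 with the block added. Of the share differences, leaving out 1 library gave -1.75 to 0.079 points for SLC25A36, -7.40 to 8.66 for SLC25A39 (0.26 on raw counts), -6.83 to 1.94 for SLC25A14 and -0.39 to 3.74 for SLC25A1.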
